A study of Mus musculus with 2 samples.

Results

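Cell division ends when sister chromatids or paired homologues are allowed to separate. The transcripts of 10 mouse genes that control this decision were followed through spermatogenesis in single-cell RNA data from adult testis. The genes were Cdc20, Fzr1, Fbxo5, Fbxo43, Pttg1, Espl1, Bub1b, Bub3, Mad2l1 and Nek2. They were taken by symbol, all 10 were found, and they are 10 of the 50686 genes in the deposited count matrix. The cells came from the whole testis of 2 wild-type mice of the C57Bl/6J Crl strain at 8 weeks of age, which were littermates. No mouse carried a transgene or received a treatment, and each mouse gave 1 droplet library. The only comparison the design allows is between cell populations within these mice. Since the mice share strain, litter and age, the spread between them covers a narrow range of animals.

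The anaphase-promoting complex, or APC/C, is a ubiquitin ligase that marks proteins for destruction. It works with a coactivator, which is CDC20 during metaphase and FZR1 (also called CDH1) from late mitosis into the next interphase. The inhibitors FBXO5 (EMI1) and FBXO43 (EMI2) block the ligase, the former in mitotic cells and the latter in meiotic cells. As long as chromosomes lack spindle attachment, the checkpoint proteins MAD2L1, BUB1B (BUBR1) and BUB3 hold CDC20 inactive. Once they release it, the ligase destroys securin, the product of Pttg1, which frees separase, the product of Espl1, to cut the cohesin that holds chromatids together. NEK2 is a centrosomal kinase with a described link to the checkpoint. In the testis, spermatogonia divide by mitosis, spermatocytes pass through a long meiotic prophase and both meiotic divisions, and spermatids do not divide.

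The libraries held 1237 cells with 27450497 unique molecular identifiers (UMIs, each standing for 1 captured RNA molecule) in mouse 1 and 1315 cells with 30302332 UMIs in mouse 2. Cells were grouped by K-means clustering into 9 clusters, with the 10 genes and 60 pathway genes left out of the clustering. No cell barcode was shared between the mice. Names were given from marker lists and carry the ending "-like". In the order of a diffusion pseudotime, 6 germ cell clusters were tested: early spermatocyte-like (163 cells), pachytene or later spermatocyte-like (527 cells), an unnamed cluster (690 cells), round spermatid-like (448 cells), and an earlier (204 cells) and a later (501 cells) elongating or condensing spermatid-like cluster. The unnamed cluster was led by Ssxb1 and Ssxb2 and had 0 of 14 round spermatid markers at 1.5 times the level of all cells. The pachytene or later cluster passed this limit for 7 of its own 14 markers, and the earlier elongating cluster for 12 of its own 12. Of the marker lists, that of round spermatids still scored best in the unnamed cluster. Its 14 markers summed there to 3441 and 3966 CPM (a scale explained below) in mouse 1 and mouse 2. They summed to 410 and 408 CPM in the pachytene or later cluster and to 7190 and 7264 CPM in the round spermatid-like cluster. The median number of UMIs per cell lay between 18820.5 and 23336 in the first 5 clusters and was 11675 in the last. A further 7 spermatogonium-like, 7 Sertoli-like and 5 Leydig-like cells entered no test.

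Levels are given as CPM, the usual count scale relative to all UMIs in the summed cells of 1 mouse and cluster. The count is made from the 3′ end of each transcript, so it is not scaled by gene length. Differences are log2 fold changes between summed counts after TMM scaling, which sets the middle of the genes at the same level in each sum. They are given with their standard error (SE) and were tested with edgeR's quasi-likelihood test. The p-values were adjusted by the Benjamini-Hochberg method across every row in the fit, which includes rows of repeat elements. A difference counts as called at an adjusted p under 0.05.

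The promoters of some of these genes are shown because genes with a peak in dividing cells are known to carry 2 short elements close to their start, the CCAAT box and the cell cycle genes homology region with the core TTTGAA. RefSeq promoter windows of 250 bases upstream of the start were found for 9 of the 10 genes in the GRCm38.p6 assembly. Both strands were searched. CCAAT was found in 7 of the 9 genes, against 33.8% of all 32851 promoter windows. TTTGAA was found in 3 of the 9, against 16% of all windows. Cdc20, Espl1 and Bub3 held both, which 5.55% of all windows did. The sequences of Cdc20 (chr4:118437344-118437593, minus strand) and Espl1 (chr15:102296043-102296292, plus strand) hold both motifs, and that of Bub1b (chr2:118597961-118598210, plus strand) holds CCAAT alone. They read 5′ to 3′ along the gene and end at the base before the RefSeq start. Capitals mark matches of either motif, with ATTGG as CCAAT on the other strand.
Cdc20: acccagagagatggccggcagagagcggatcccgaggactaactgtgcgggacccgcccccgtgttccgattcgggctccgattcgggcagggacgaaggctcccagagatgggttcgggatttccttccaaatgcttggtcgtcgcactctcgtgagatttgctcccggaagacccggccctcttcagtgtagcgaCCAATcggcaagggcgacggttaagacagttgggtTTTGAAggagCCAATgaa
Espl1: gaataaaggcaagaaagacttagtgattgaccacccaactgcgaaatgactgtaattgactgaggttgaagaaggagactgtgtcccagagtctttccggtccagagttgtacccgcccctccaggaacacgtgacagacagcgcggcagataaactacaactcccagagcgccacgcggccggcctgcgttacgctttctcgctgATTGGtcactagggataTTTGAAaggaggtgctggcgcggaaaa
Bub1b: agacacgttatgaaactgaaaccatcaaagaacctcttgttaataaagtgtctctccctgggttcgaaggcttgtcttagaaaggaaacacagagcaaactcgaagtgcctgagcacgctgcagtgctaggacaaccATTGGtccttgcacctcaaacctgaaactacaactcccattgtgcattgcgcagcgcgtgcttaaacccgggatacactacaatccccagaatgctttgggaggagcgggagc
In Cdc20, CCAAT began 53 and 8 bases and TTTGAA 18 bases before the start. In Espl1, the distances were 44 bases for CCAAT and 27 bases for TTTGAA, and in Bub1b CCAAT lay 113 bases before the start. The CCAAT and TTTGAA matches did not overlap. Most RefSeq starts differ from those of the GENCODE annotation, by which 7 of the 9 windows overlap an exon. The overlap is 9 bases in Cdc20 and 27 in Espl1, so the CCAAT 8 bases before the end in Cdc20 and the TTTGAA in Espl1 lie in the annotated gene. In Fzr1, Fbxo5, Bub3 and Nek2 it is 146, 135, 148 and 29 bases, and their matches lie within it. The matches describe the letters of these windows and no binding was measured.

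**Figure D1:**
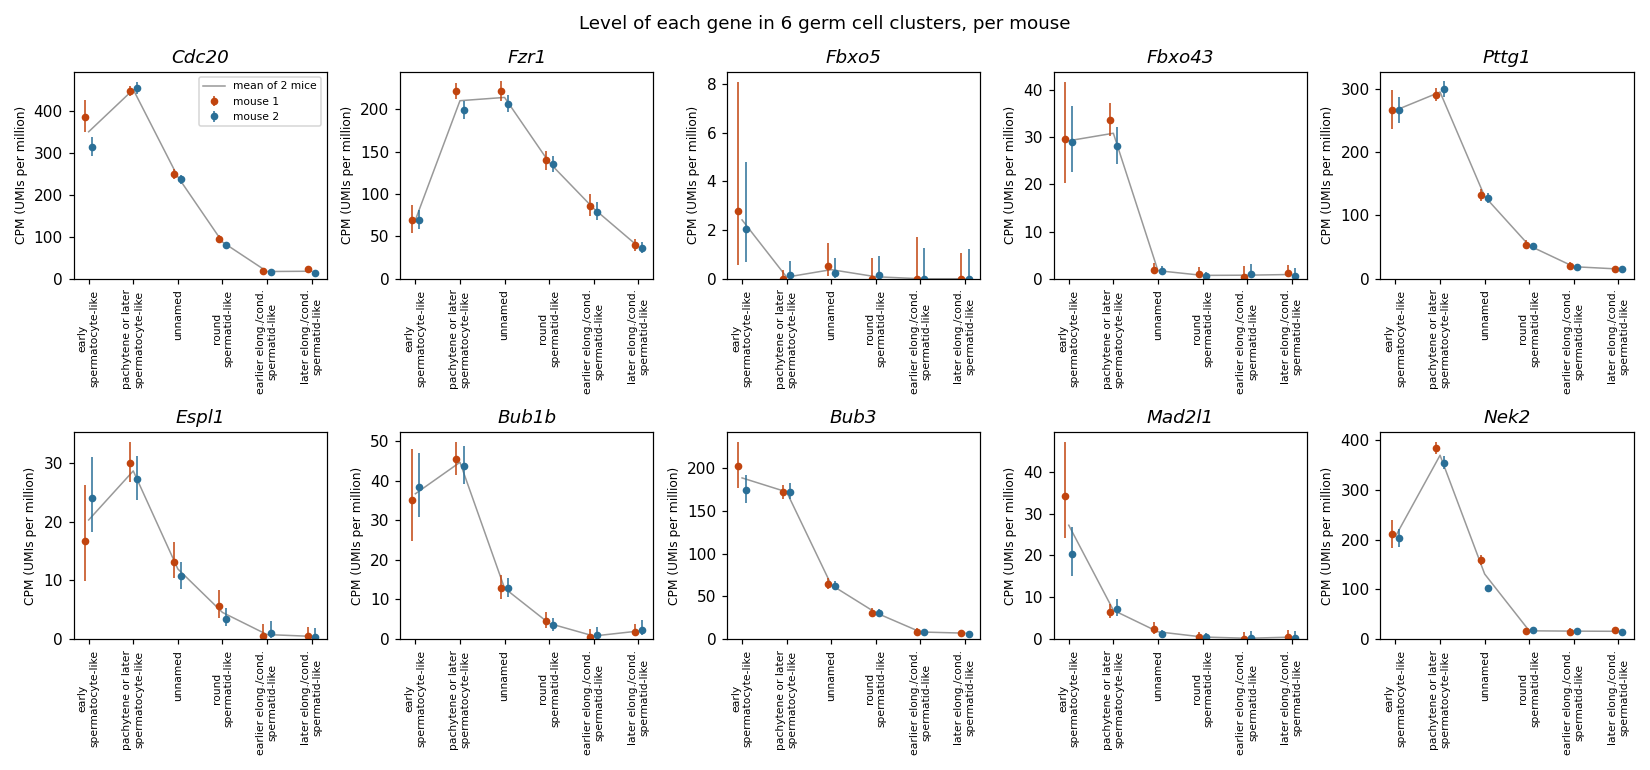
Level of each of the 10 genes in 6 germ cell clusters in order of the pseudotime (x axis) as CPM on a linear axis (y axis). Points are mouse 1 and mouse 2 with exact 95% Poisson intervals and the grey line is the mean. Most genes are highest in the pachytene or later spermatocyte-like cells and lowest in the elongating clusters, while Fzr1 is at its highest in the pachytene and unnamed clusters and Mad2l1 in the early spermatocyte-like cells.

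Most of the genes were high in both spermatocyte clusters and low in spermatids, and 3 of them departed from the common course. Fzr1 stayed near its highest level into the unnamed cluster, Mad2l1 was, among the 6 tested clusters, highest in the early spermatocyte-like cells, and Fbxo5 was nearly undetected in the spermatocyte and spermatid clusters. Fbxo5 did not pass the filter on low counts, so 9 of the 10 genes were tested. From the early to the pachytene or later spermatocyte-like cells, 6 of the 9 rose and 1 fell, while 26.1% of the 13873 genes tested rose and 24.3% fell. From the pachytene cells to the unnamed cluster, 8 fell and 0 rose, against 31.3% of all genes that fell and 31.8% that rose. From the unnamed cluster to the round spermatid-like cells, 7 fell and 0 rose, against 20.4% and 26.0%. At the start of elongation, 5 fell and 0 rose, against 21.3% and 23.7%. Between the earlier and later elongating clusters, 2 rose and 1 fell, against 16.7% and 22.8%. The median log2 fold changes of the 9 genes over these steps were 0.53, -1.39, -1.18, -0.94 and 0.57, while the medians of all genes tested lay between -0.06 and 0.01.

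The first and the last of these steps depended on the scaling. With RLE size factors in place of TMM, 2 of the 9 genes rose at the first step, and with plain totals 3 did. The share of higher calls among all called genes at the first step was 51.8% with TMM, 38.4% with RLE, 39.8% with plain totals and 69.3% with UMIs per cell. Against TMM, the median gene moved by -0.29, -0.26 and 0.41 on the log2 scale in these 3 settings. At the last step this share was 42.3% with TMM, 54.0% with RLE, 14.5% with plain totals and 0.501% with UMIs per cell, with median shifts of 0.22, -0.60 and -1.50. At the step to round spermatid-like cells and at the start of elongation, plain totals changed the share from 56.0% to 40.2% and from 52.7% to 30.6%. With UMIs per cell, it changed from 50.4% to 27.5% at the step to the unnamed cluster and from 52.7% to 33.9% at the start of elongation. The falls of the second step were the most stable: 7 of the 9 results there kept their direction and side of the threshold under all 10 alternatives, against 3 at step 1, 6 at step 3, 4 at step 4 and 1 at step 5.

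**Figure D2:**
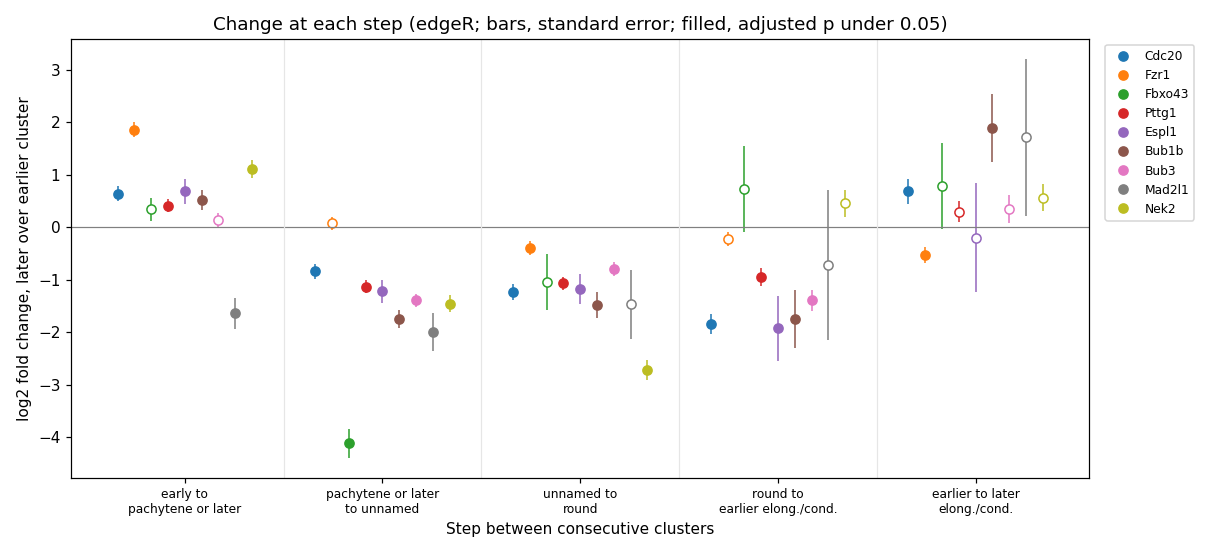
Log2 fold change (y axis) of 9 genes at the 5 steps between consecutive clusters (x axis), later over earlier cluster, from edgeR on 2 mice. Bars are standard errors, filled points have an adjusted p under 0.05 and open points do not. At the step from pachytene or later to unnamed, all points but that of Fzr1 lie below 0, and that of Fbxo43 is the lowest at -4.11.

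Of the coactivators, Cdc20 (chromosome 4, 118432901 to 118437352, minus strand, GRCm38) had the highest level of all 10 genes. It measured 386 CPM in mouse 1 and 315 CPM in mouse 2 in the early spermatocyte-like cells, and 448 and 455 CPM in the pachytene or later cells. In the unnamed cluster it had 249.3 and 237 CPM, and the round spermatid-like cluster measured 94.6 and 80.4 CPM. The earlier elongating cluster had 19.2 and 15.2 CPM and the later one 22.4 and 13.4 CPM. The mice did not overlap between any neighbouring clusters up to the start of elongation, and overlapped between both elongating clusters. Cdc20 rose by 0.65 ± 0.15 (log2 fold change, SE, n = 2) into the pachytene cluster (edgeR, adjusted p = 0.00082), a rise that was not called under 3 of 10 alternatives, where the values ranged from 0.34 to 1.05. It then fell by 0.84, 1.23 and 1.84 over the next 3 steps (edgeR, adjusted p = 2.7e-05, 4.4e-07 and 5e-08). The early and the unnamed cluster are next to each other when the clusters are ranked by Cdc20 CPM. With TMM their difference was not called (log2 difference 0.19 ± 0.15, edgeR, adjusted p = 0.26). Their CPM did not overlap between the mice, and this contrast was not tested under other scalings. The pachytene cluster held 58.4% of all Cdc20 UMIs, and the unnamed cluster 24.9%.

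Fzr1 (chromosome 10, 81366222 to 81378516, minus strand), the coactivator that follows CDC20 in dividing cells, took another course. Its level was 69.3 and 69.4 CPM in the early spermatocyte-like cells of mouse 1 and mouse 2, and 221 and 199 CPM in the pachytene or later cells. It had 222 and 206 CPM in the unnamed cluster, where Cdc20 had already fallen. Round spermatid-like cells had 140 and 135 CPM, and the elongating clusters 86.4 and 79.4 CPM and then 39.6 and 36.3 CPM. The rise into the pachytene cluster was 1.86 ± 0.14 (log2, SE, n = 2; edgeR, adjusted p = 5.5e-10), a 3.63-fold difference called under all 10 alternatives. The step into the unnamed cluster gave 0.08 ± 0.12 (edgeR, adjusted p = 0.59) and was not called, but counted as UMIs per cell it was -0.71 and called, since the pachytene cells held a mean of 33958 UMIs and the unnamed cells 20640. Fzr1 fell by 0.39 ± 0.13 into the round spermatid-like cells (edgeR, adjusted p = 0.015) under all 10 alternatives. Between the early and the later elongating cluster, the scalings gave opposite directions: the CPM were lower in the latter, while the TMM-scaled difference was 0.82 ± 0.16 higher (edgeR, adjusted p = 8.7e-05).

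The balance of both coactivators can be read within each sum of cells, where no scaling enters. Cdc20 made up 84.8% (95% exact binomial interval 81.3 to 87.8) of the Cdc20 and Fzr1 UMIs in the early spermatocyte-like cells of mouse 1 and 81.9% (79.3 to 84.4) in mouse 2. The share was 66.9% and 69.6% in the pachytene or later cells, 52.9% and 53.4% in the unnamed cluster, and 40.4% and 37.3% in the round spermatid-like cluster. The earlier elongating cluster had 18.2% and 16.1%. The mice lay closer to each other than to the neighbouring cluster at each of these points. In UMIs, Cdc20 exceeded Fzr1 by 5.57 and 4.54 times at the beginning and Fzr1 exceeded Cdc20 by 4.49 and 5.20 times in the earlier elongating cells. The later elongating cluster had 36.1% and 27.0%, from 78 and 41 Cdc20 UMIs. In both elongating clusters Cdc20 was found in a smaller share of cells than in Sertoli-like and Leydig-like cells, so the ratio there describes the counted molecules only. The intervals cover counting error only.

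**Figure D3:**
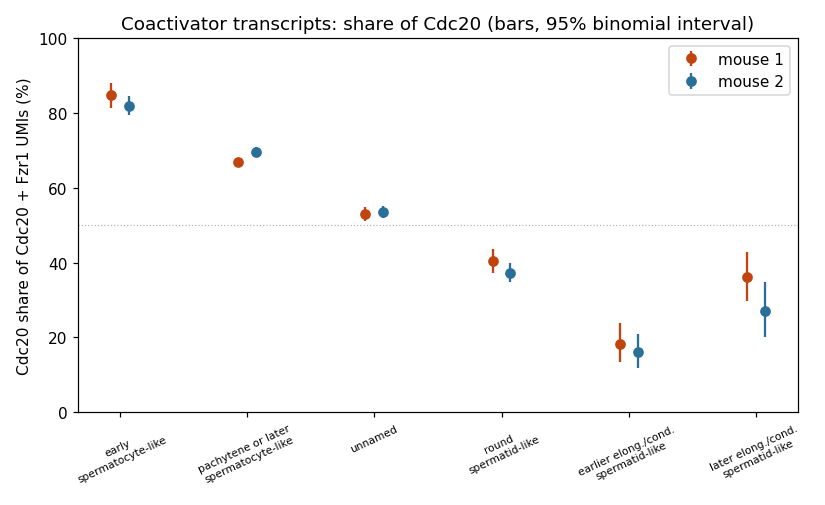
Share of Cdc20 among the summed UMIs of Cdc20 and Fzr1 in percent (y axis) in 6 germ cell clusters (x axis). Points are mouse 1 and mouse 2 with exact 95% binomial intervals. The share goes from 84.8% and 81.9% in early spermatocyte-like cells to 18.2% and 16.1% in the earlier elongating cluster, and Fzr1 first exceeds Cdc20 in the round spermatid-like cluster. From that cluster on, the share describes the counted molecules only.

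The inhibitors of the ligase differed widely in level, and both were counted in the early spermatocyte-like cells. Fbxo43 (chromosome 15, 36150060 to 36164884, minus strand), the meiotic inhibitor, had 29.6 and 28.9 CPM in the early and 33.6 and 28.0 CPM in the pachytene or later spermatocyte-like cells of mouse 1 and mouse 2. The level in the unnamed cluster was 1.86 and 1.56 CPM, and no later cluster exceeded 1.15 CPM in either mouse. The fall of 4.11 ± 0.27 on the log2 scale (SE, n = 2; edgeR, adjusted p = 6.6e-12), or 17.3-fold, was larger than that of any other of the 9 genes at any step, and it was called under all 10 alternatives. The 2 spermatocyte clusters did not differ beyond the spread (0.34 ± 0.22, edgeR, adjusted p = 0.21). Of all Fbxo43 UMIs, 79.4% came from the pachytene cluster and 14.5% from the early one. The ratio of Cdc20 to Fbxo43 UMIs was 13.1 and 10.9 in the early cells, 13.3 and 16.2 in the pachytene cells and 134 and 152 in the unnamed cluster.

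Fbxo5 (chromosome 10, 5799160 to 5805600, minus strand), the mitotic inhibitor, had 21 UMIs in 19 of 2552 cells. The 7 spermatogonium-like cells held 6 of them, 1 in mouse 1 and 5 in mouse 2. A further 8 UMIs fell in the 163 early spermatocyte-like cells, at 2.77 and 2.06 CPM. The pachytene cluster had 1 UMI in 527 cells, the unnamed cluster 5 in 690 and the round spermatid-like cluster 1 in 448. The earlier elongating cluster had 0 of 204 cells and the later one 0 of 501, which allows shares of up to 1.47% and 0.599% of cells with a UMI. Neither Sertoli-like nor Leydig-like cells had a Fbxo5 UMI, which in 12 cells allows a share of up to 25%. The gene was thus measured mainly at the mitotic and early meiotic end of the series, in too few molecules to pass the filter on low counts.

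Securin and separase ran in parallel at different levels. Pttg1 (securin, chromosome 11, 43420250 to 43426251, minus strand) had 266 CPM in both mice in early spermatocyte-like cells, 291 and 299 CPM in pachytene or later cells, 133 and 128 CPM in the unnamed cluster and 53.6 and 51.0 CPM in round spermatid-like cells. Espl1 (separase, chromosome 15, 102296266 to 102324357, plus strand) had 16.6 and 24, 30.1 and 27.2, 13.2 and 10.7, and 5.59 and 3.47 CPM in the same clusters. The mice agreed closely for Pttg1, and less so for Espl1, of which 18 and 58 UMIs were counted in the early cells. From the pachytene to the unnamed cluster, Pttg1 fell 2.18-fold and Espl1 2.33-fold (edgeR, adjusted p = 4.2e-08 and 3.4e-05). The next step took 2.09-fold and 2.26-fold (edgeR, adjusted p = 4.2e-07 and 0.0014), and the call of Espl1 was lost under 1 of 10 alternatives. Over the 2 spermatocyte clusters, the unnamed and the round spermatid-like cluster, the ratio of Pttg1 to Espl1 UMIs lay between 9.58 and 16. Pttg1 fell again at the start of elongation by 0.94 ± 0.17 (log2, SE, n = 2; edgeR, adjusted p = 5.4e-05), to 19.7 and 18.4 CPM, and the call was lost under 1 of 10 alternatives at an adjusted p of 0.052. Espl1 had 1 and 3 UMIs in the earlier and 2 and 1 UMIs in the later elongating cluster, against 24 and 21 in the round spermatid-like cells.

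Among the checkpoint genes, Bub3 and Bub1b followed the common course and Mad2l1 ended earlier. Bub3 (chromosome 7, 131560222 to 131571895, plus strand), a kinetochore adaptor, had 202 and 175 CPM in the early and 172 and 173 CPM in the pachytene or later spermatocyte-like cells of mouse 1 and mouse 2. Its first step gave 0.15 ± 0.13 (log2, SE, n = 2; edgeR, adjusted p = 0.37) with TMM and values below 0 with RLE, plain totals, DESeq2 and thinned cells. In the unnamed cluster Bub3 had 64.3 and 62.4 CPM, and it fell 2.62-fold, 1.73-fold and 2.62-fold over the next 3 steps (edgeR, adjusted p = 2.7e-09, 5.2e-05 and 5.3e-06), each called under all 10 alternatives. Bub1b (chromosome 2, 118598211 to 118641591, plus strand), the pseudokinase of the mitotic checkpoint complex, had 35.1 and 38.4, 45.6 and 43.9, 12.9 and 12.8, and 4.43 and 3.47 CPM in the first 4 clusters. It fell 3.34-fold and then 2.78-fold (edgeR, adjusted p = 1.4e-08 and 3e-05). Its UMIs were 0.114 to 0.265 of those of Bub3 in each mouse across these 4 clusters.

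Mad2l1 (chromosome 6, 66535390 to 66547220, plus strand), the protein that captures CDC20, was highest among the 6 tested clusters in the early spermatocyte-like cells, with 34.2 CPM in mouse 1 and 20.2 CPM in mouse 2. It had 6.51 and 7.24 CPM in the pachytene or later cells, 2.37 and 1.08 CPM in the unnamed cluster and at most 0.574 CPM in either mouse thereafter. Both mice were lower in the pachytene cells than in the early cells, where they lay apart by an SD of 9.87 CPM. Mad2l1 fell by 1.64 ± 0.29 (log2, SE, n = 2; edgeR, adjusted p = 6e-05), or 3.11-fold, at the step at which Cdc20, Pttg1, Bub1b and Nek2 rose, and the call held under all 10 alternatives. The rises of Pttg1, Bub1b and Espl1 at this step were lost under 3, 4 and 4 of them, with values down to 0.11, 0.24 and 0.24. The next step took another 3.98-fold (edgeR, adjusted p = 4.3e-05), a call lost under 1 of 10 alternatives at an adjusted p of 0.050. The cells of mouse 1 in the early cluster also had more UMIs of 15 Sertoli markers, at 201 CPM against 64.4 CPM in mouse 2 and 31.5 to 87.3 CPM in the other clusters, with 4 and 2 of the markers at 0. The Mad2l1 level in the 7 Sertoli-like cells was 1 UMI. The part of these molecules in the values of the early cluster was not tested.

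Nek2 (chromosome 1, 191821444 to 191833050, plus strand) rose into the pachytene cluster and then fell over 2 steps. It had 211 and 203 CPM in the early and 385 and 355 CPM in the pachytene or later cells of mouse 1 and mouse 2, a rise of 1.11 ± 0.17 (log2, SE, n = 2; edgeR, adjusted p = 7.5e-06) called under all 10 alternatives. In the unnamed cluster it had 159 and 102 CPM and in round spermatid-like cells 15.2 and 17.8 CPM. It fell 2.74-fold and then 6.60-fold (edgeR, adjusted p = 5.8e-08 and 9.7e-11). The mice differed in the unnamed cluster, with an SD of 40.3 CPM. From the round spermatid-like cells on, Nek2 had between 13.4 and 17.8 CPM in each mouse and the steps were not called with TMM. Under other settings the last step was called higher in 3 of 10 and lower with UMIs per cell (-0.94).

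The finer order of the pseudotime gave a closer view of these falls. The 2533 germ cells were divided into 20 bins of 126 or 127 cells. Bin 6 is mixed, with 70 of its 126 cells from the unnamed cluster, so its values join both sides of a cluster border. It held 88 and 42 Fbxo43 UMIs in mouse 1 and mouse 2, while the whole unnamed cluster held 24. Most Fbxo43 molecules of bin 6 thus came from its cells outside the unnamed cluster. Nek2 had 256 CPM in mouse 1 and 258 CPM in mouse 2 in bin 7, in which all cells belong to the unnamed cluster, then 141 and 145, 94.0 and 75.1, 50.7 and 48.3, and 23.8 and 25.7 CPM up to bin 11. The mice were closer within these bins than in the whole unnamed cluster. Mouse 1 had 74 cells and mouse 2 had 53 cells in bin 7, against 40 and 87 cells in bin 11. Fbxo43 had 27.7 and 22.4 CPM in bin 6 and 3.89 and 2.90 CPM in bin 7, so it had fallen where Nek2 was still at 256 and 258 CPM. Bub1b went from 39.3 and 34.2 to 12.4 and 18.4 CPM between the same bins, and Bub3 from 167 and 175 to 76.3 and 76.5 CPM. Espl1 went from 33.0 and 34.2 to 14.8 and 7.7 CPM there. Cdc20 and Pttg1 declined more slowly: Cdc20 had 466 and 449 CPM in bin 6, 221 and 220 CPM in bin 9 and 154 and 174 CPM in bin 11.

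Fzr1 was at 61.7 and 62.9 CPM in bin 1, at 244 and 225 CPM in bin 3, and still at 210 and 206 CPM in bin 10. It went down to 26.5 and 30.4 CPM only in bin 20. Mad2l1 had its highest values in bin 1, at 39.2 and 19.4 CPM, and 4.98 and 2.16 CPM in bin 3. Cdc20, Pttg1, Bub1b and Nek2 peaked in bin 3 in both mice, at 483 and 588, 331 and 348, 51.9 and 54.1, and 465 and 479 CPM. Espl1 had its highest values at 37.4 CPM in bin 5 of mouse 1 and 34.2 CPM in the mixed bin 6 of mouse 2. In bin 3 it had 26.3 and 30.3 CPM, from 37 and 28 UMIs, and whether its peak is later was not tested. Bub3 was highest in bin 1 at 216 and 199 CPM, with 186 and 184 CPM in bin 5.

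**Figure D4:**
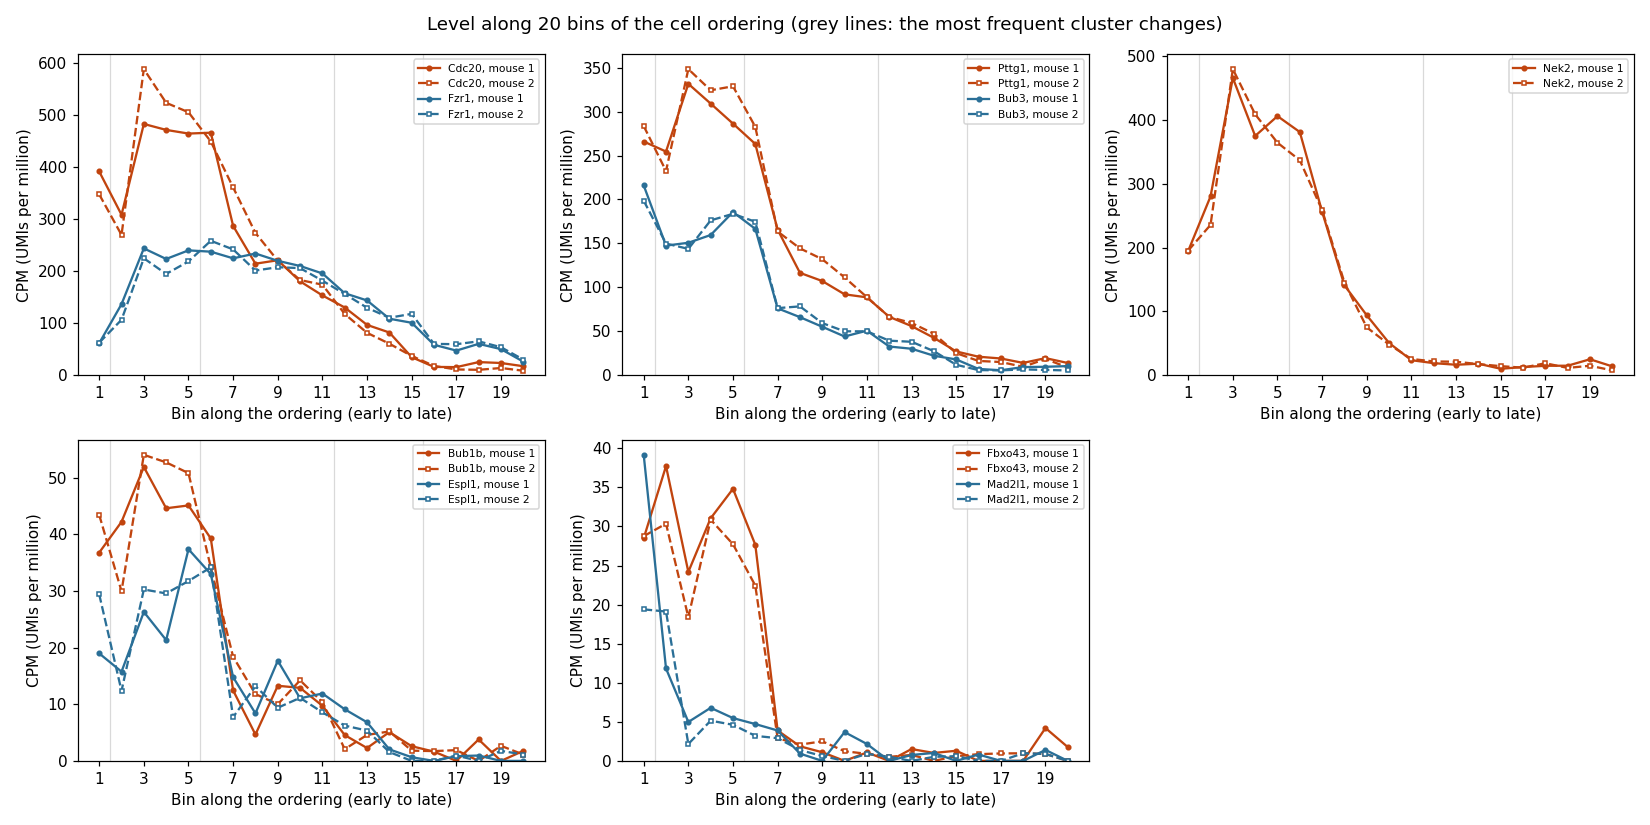
CPM (y axis, linear) of 9 genes in 20 bins of cells along the diffusion pseudotime (x axis, early to late). Solid lines with filled points are mouse 1, dashed lines with open squares are mouse 2, and grey lines mark where the most frequent cluster of a bin changes. Fbxo43, Bub3, Bub1b and Espl1 fall steeply from bin 6, which mixes clusters, to bin 7, where all cells are of the unnamed cluster. The fall of Nek2 extends over bins 7 to 11, and Fzr1 stays near its maximum up to bin 10.

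Over the 40 points of 20 bins and 2 mice, the profiles of most of the genes were alike. These points share libraries, depth and the same ordering, so the coefficients describe likeness only. Pearson's r of log2(CPM + 1) was 0.98 for Cdc20 with Pttg1, 0.99 for Pttg1 with Bub3 and 0.95 for Pttg1 with Espl1. Fzr1 was the least like the others of the 9 tested genes, with 0.25 for Mad2l1, 0.35 for Fbxo43 and 0.82 for Cdc20. Among 7210 candidates of at least 10 CPM in each mouse, the genes nearest to Cdc20 were Srp14 (0.99) and Rexo2 (0.99), and those nearest to Fzr1 were Ccdc96 (0.98) and Tbc1d15 (0.98). Tchp and Bcl2l12 were nearest to Fbxo43 (both 0.96), Ddt and Rsph1 to Pttg1 (both 0.99), and Prdx5 and Emc7 to Espl1 (both 0.96). Nt5m and Pbk were nearest to Bub1b (both 0.95), Rsph1 and Pbk to Bub3 (both 0.99), and Nap1l4 (0.98) and Slc2a3 (0.97) to Nek2. The nearest to Mad2l1 were 4933435G04Rik (0.94) and Lsm6 (0.93), and to Fbxo5, with its few UMIs, Gml and 4921524J17Rik (both 0.75).

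In the cells themselves, several of the genes were detected together in spermatocytes. After each cell was thinned to 5000 UMIs, a mean of 3.76 of the 10 genes was detected in early spermatocyte-like and 4.25 in pachytene or later cells. The mean was 2.64 in the unnamed cluster, 1.34 in the round spermatid-like cluster, and 0.691 and 0.439 in the elongating clusters. The share of cells with at least 5 of the genes was 26.9% and 25.2% in mouse 1 and mouse 2 in the early cells, 40.9% and 43.8% in the pachytene cells, 9.03% and 4.74% in the unnamed cluster, and 0 in the elongating clusters. Cells with none of the genes made up 1.84% of the early, 0% of the pachytene, 2.90% of the unnamed, 20.3% of the round spermatid-like and 48.0% and 63.5% of the elongating cells. The numbers depend on depth: without thinning, the means were 6.28, 6.72, 4.78, 3.40, 1.96 and 0.978.

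At the level of single genes, Cdc20 was detected in 99.2% of pachytene or later cells (98.1 to 99.8, 95% exact binomial interval), 97.4% of the unnamed cells, 80.1% of the round spermatid-like cluster, and 28.4% and 17.2% of the elongating cells. In the 12 Sertoli-like and Leydig-like cells, which have median depths of 12039 and 9856 UMIs and should not divide, Cdc20 was found in 58.3% (27.7 to 84.8). The shares in both elongating clusters lie below this value, that of the earlier one inside its interval, at median depths of 23336 and 11675 UMIs. That of the round spermatid-like cluster also lies inside the interval, and after thinning it was 35.7%, against 41.7% of the 12 cells. No expression is read from these shares, and whether the molecules were free RNA was not tested. The shares were likewise at or below those of the 12 cells for Pttg1, which was found in 66.7% of the 12 cells, 65.4% of round spermatid-like cells and 34.8% and 16.2% of elongating cells, and for Bub3, with 58.3%, 47.8%, 16.7% and 7.98%. After thinning, Pttg1 was found in 50.6% of the unnamed and 50% of the 12 cells, and Bub3 in 26.7% and 25%. Fzr1 was found in 41.7% of the 12 cells, 80.4% of the earlier and 36.1% of the later elongating cells. For Fzr1, 5 of 12 cells gave an interval of 15.2 to 72.3. The later elongating share lies below 41.7% and inside this interval, and the earlier one lies above the interval at a greater median depth. In cells thinned to equal depth, the earlier share was 36.3%, inside the interval of the 12 cells (25%, 5.49 to 57.2). No expression of Fzr1 is read from either elongating share. Nek2 was found in 16.7% of the 12 cells (2.09 to 48.4), in 99.4% of pachytene cells and in 32.1% of round spermatid-like cells. Its share in the round spermatid-like cells and those in the elongating clusters, 28.9% and 15.8%, lie inside this interval. No expression is read from them. Mad2l1 was found in 16.7% of the 12 cells (2.09 to 48.4), 39.3% of early, 18.2% of pachytene and 3.04% of unnamed cells. The interval of the 12 cells holds all of these shares, so the shares alone show no level above that of the 12 cells. Espl1 and Bub1b were each found in 8.33% of the 12 cells, and in 9.82% and 8.71% of round spermatid-like cells. Fbxo43 was found in 8.33% of the 12 cells, in 46.7% of pachytene cells and in 3.48% of the unnamed cells.

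From the pachytene or later cells to the round spermatid-like cells, all 9 tested genes fell with TMM, while 39.1% of all genes did. The folds were 35.7 for Fbxo43, 18.0 for Nek2, 11 for Mad2l1, 9.28 for Bub1b, 5.27 for Espl1, 4.57 for Pttg1, 4.53 for Bub3, 4.18 for Cdc20 and 1.24 for Fzr1 (edgeR, adjusted p between 6.8e-15 for Nek2 and 0.031 for Fzr1). The median of all genes was -0.13 on the log2 scale. From the pachytene to the later elongating cells all 9 fell as well, against 39.7% of all genes, with a median of -0.28. The smallest difference was again that of Fzr1, at -1.05 ± 0.14 (log2, SE, n = 2; edgeR, adjusted p = 6.5e-07), and that of Cdc20 was -3.22 ± 0.18. Neither contrast was tested under other scalings.

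On the CPM scale, the count in the later elongating cells was 3.98% ± 1.45 (SD, n = 2) of the pachytene level for Cdc20, 5.22% ± 0.43 for Pttg1, 4.16% ± 0.54 for Nek2, 3.97% ± 0.53 for Bub3 and 18.1% ± 0.26 for Fzr1. No expression is read from these residual counts. With TMM the same falls were smaller, at 9.30-fold for Cdc20 and 2.06-fold for Fzr1, so the percentages depend on the scaling. For 8 of the 9 genes the percentage on the CPM scale lay between 1.56% and 6.67%. The 14 markers of pachytene or later spermatocytes ranged from 2.50% to 447% with a median of 7.65%, and 9 of them were under 10%. The 14 markers of early spermatocytes ranged from 4.41% to 2768% with a median of 22.8%. The top of the latter range, Dmc1, rests on 8 and 1 UMIs in the pachytene cells of mouse 1 and mouse 2. Fzr1 lay within both ranges, which are wide, and between both medians. These markers were used to name the clusters.

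**Figure D5:**
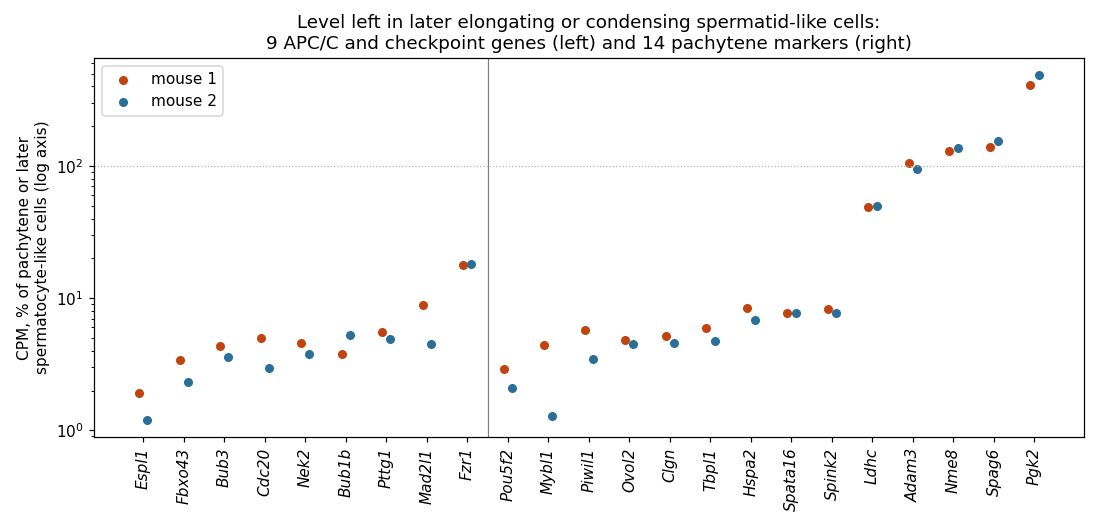
CPM in the later elongating or condensing spermatid-like cells as percent of the pachytene or later spermatocyte-like CPM (y axis, log scale) for 9 of the genes and 14 pachytene markers (x axis). Points are mouse 1 and mouse 2, and the dotted line marks 100%. Fzr1 stands at 18.1%, above the other 8 genes, and Ldhc, Adam3, Nme8, Spag6 and Pgk2 stand above all of them.

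Both elongating clusters overlapped along the pseudotime, with median ranks of 2044 for the earlier and 2245 for the later one. The later one was already the most frequent cluster in bins 16 and 17, with 82 and 78 of 127 cells. Between the earlier and the later elongating cells, 3 calls were made. Cdc20 was 0.69 ± 0.23 higher (log2, SE, n = 2; edgeR, adjusted p = 0.021) with TMM, but it fell by 0.83 when counted as UMIs per cell, and in mouse 2 alone its CPM ratio was -0.17 on the log2 scale. Bub1b was 1.90 ± 0.65 higher (edgeR, adjusted p = 0.031), from 1 and 3 UMIs to 6 and 7 UMIs, a call lost under 3 of 10 alternatives, with values down to 0.40. Fzr1 fell by 0.52 ± 0.15 (edgeR, adjusted p = 0.0086), and this call was lost under 4 of 10 alternatives. The median depth per cell was 23336 UMIs in the earlier and 11675 UMIs in the later cluster. The summed CPM of 8 macrophage markers was 18.3 and 22.9 in the earlier and 34.7 and 42.9 in the later cluster, against 0.924 and 2.48 in the early spermatocyte-like cells, with 5 and 2 of the 8 at 0 in the later cluster. The part of these differences in the 3 calls was not tested.

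The other genes of the pathway were counted in 4 lists. Of the 16 subunits and ubiquitin-conjugating partners of the APC/C, 5 rose and 5 fell into the pachytene cluster, where 26.1% of all genes rose and 24.3% fell. Into the unnamed cluster 3 rose and 6 fell, against 31.8% and 31.3% of all genes. At the next steps 1 rose and 7 fell (all genes 26.0% and 20.4%), and 2 rose and 4 fell (23.7% and 21.3%). Between the elongating clusters 7 rose and 3 fell (16.7% and 22.8%). Their median at the second step was -0.19, against -0.04 of all genes and -1.39 of the 9 regulators. Ube2s, the conjugating enzyme that extends ubiquitin chains, was the most abundant, with 2406 ± 90.3 CPM (SD, n = 2) in the early cells, 1578 ± 47.7 CPM in the unnamed cluster and 305 ± 2.31 CPM in the later elongating cells. Anapc10, a subunit that helps bind substrates, rose into the unnamed cluster from 61.8 ± 5.42 to 151 ± 3.98 CPM (edgeR, adjusted p = 2.7e-08). Anapc11, the RING subunit, fell at this step from 210 ± 2.0 to 117 ± 5.68 CPM (edgeR, adjusted p = 1e-05). Anapc13 was not called at the first 4 steps and had 381 ± 23.8 CPM in the early and 212 ± 33.7 CPM in the round spermatid-like cells.

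Of 19 partners at the checkpoint and kinetochore, 6 rose and 5 fell into the pachytene cluster, where 8 fell with the mouse as a block and 26.1% of all genes rose and 24.3% fell. At the next steps 3 rose and 13 fell (all genes 31.8% and 31.3%), and 1 rose and 12 fell (26.0% and 20.4%). At the start of elongation 3 rose and 8 fell (23.7% and 21.3%). Between the elongating clusters 2 rose and 3 fell (16.7% and 22.8%). The medians at the steps into the unnamed and the round spermatid-like cluster were -0.96 and -0.98. Cenpf and Cenpe, both kinetochore proteins, were highest among the 6 tested clusters in the pachytene cells, at 464 ± 45.8 and 200 ± 13.9 CPM (SD, n = 2). Bub1, the kinase partner of BUB3, was instead highest among these clusters in the unnamed one, at 159 ± 11.6 CPM against 42 ± 0.20 CPM in the pachytene cells, a rise of 1.97 ± 0.14 (log2, SE; edgeR, adjusted p = 4.3e-11). At this step Bub1b and Bub3 fell. Nuf2, a subunit of the NDC80 complex, kept 110, 108 and 111 CPM over the first 3 clusters and had 41.2 ± 1.93 CPM in round spermatid-like cells.

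Of 12 genes of the chromosomal passenger complex, the shugoshins and the division kinases, 11 rose and 1 fell into the pachytene cluster, against 26.1% and 24.3% of all genes. Into the unnamed cluster 1 rose and 7 fell, against 31.8% and 31.3% of all genes. At the following steps 0 rose and 9 fell (26.0% and 20.4%), and 0 rose and 5 fell (23.7% and 21.3%). Between the elongating clusters, the step at which the scalings differed most, 5 rose and 0 fell with TMM (16.7% and 22.8%). Aurka, a spindle pole kinase, went from 127 ± 4.24 to 596 ± 21.6 CPM (SD, n = 2), Birc5 (survivin) from 188 ± 8.45 to 344 ± 6.30 CPM and Plk1 from 13.7 ± 5.41 to 221 ± 1.83 CPM. Haspin, a histone H3 kinase listed under an older symbol, went from 333 ± 65.2 to 1045 ± 10.2 CPM and still had 720 ± 49.8 CPM in the later elongating cells. Plk1 was at 223 ± 5.97 CPM in the unnamed cluster and fell to 90.3 ± 4.14 CPM in round spermatid-like cells (edgeR, adjusted p = 2.3e-06).

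Of 13 genes listed as substrates of the APC/C, targets of separase or partners of these, 10 were tested. Into the pachytene cluster 5 rose and 1 fell, where 2 fell with the mouse as a block, against 26.1% and 24.3% of all genes. Into the unnamed cluster 4 rose and 3 fell, against 31.8% and 31.3%. At the next steps 2 rose and 5 fell (26.0% and 20.4%), and 1 rose and 5 fell (23.7% and 21.3%). Between the elongating clusters 2 rose and 4 fell (16.7% and 22.8%). Ccnb1, a cyclin that the ligase destroys, went from 21 ± 6.91 CPM (SD, n = 2) in the early to 285 ± 5.26 CPM in the pachytene cells and 339 ± 1.68 CPM in the unnamed cluster. Ccnb2 likewise peaked in the unnamed cluster, at 473 ± 38.4 CPM, where Cdc20 and Pttg1 had fallen. Both cyclin peaks are shares of all UMIs, and the mean per cell was 33958 UMIs in the pachytene and 20640 in the unnamed cluster. Ccnb2 had 358 ± 1.18 CPM in the pachytene cells. For both cyclins the rise in CPM was smaller than this drop in depth. Both thus had fewer UMIs per cell in the unnamed cluster than in the pachytene cluster, a difference that was not tested. Ccna1, the cyclin A of meiosis, went from 23.5 ± 3.40 to 399 ± 25.3 CPM at the first step. Cks2, a small partner of cyclin-dependent kinases, fell from 1026 ± 60.1 to 307 ± 11 CPM at the first step and to 30.5 ± 2.37 CPM at the second (edgeR, adjusted p = 9.8e-09 and 2.1e-14).

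The 7 spermatogonium-like cells give values with no test. They held 12 and 7 Cdc20 UMIs in mouse 1 and mouse 2, or 390 and 159 CPM, and 5 and 5 Pttg1 UMIs. Mad2l1 had 1 and 7 UMIs, or 32.5 and 159 CPM, and the mean of 95.9 CPM was above that of any other cluster. Espl1 had 1 and 3 UMIs, at a mean of 50.4 CPM, and Nek2 had 3 and 1 UMIs. With 3 cells in mouse 1 and 4 in mouse 2, these levels rest on few molecules.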

How the data were processed

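Whole testis cells of 2 mice were measured with Chromium 3′ v2 chemistry, after passage through a strainer to limit somatic cells. The deposited values are UMI counts per gene and cell, made by the authors with Cell Ranger 2.0.0 after bcl2fastq 2.17.1.14 on mm10, per the submitters' processing notes. Repeat elements were added as 1182 rows. These rows stayed in the UMI totals and were not excluded from the clustering, the scaling or the fit. They were left out of the numbers and shares of all genes. The authors aggregated the libraries after downsampling reads, so that depth is alike by construction. Cells were assigned to mice by the number at the end of each barcode, which matches the number in the sample titles. The members and gene lists were chosen with earlier results of these data known.

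Cells were clustered by K-means (K of 9, 10 components, 27721 rows) and ordered by diffusion pseudotime with 30 neighbours (scanpy 1.11.5, scikit-learn 1.9.0). A marker passed at 1.5 times its level in all cells, and at least 3 had to pass for a name. The 25 cells called as doublets were kept. Counts were summed per mouse and cluster (12 sums of 6 clusters) and tested with edgeR 4.0.16 (TMM, filterByExpr, glmQLFTest) in R 4.3.3 at a Benjamini-Hochberg threshold of 0.05. All sums of a number come from the same mouse, and over 15 pairs of clusters the correlation of their deviations was 0.024 to 0.23. The p-values rest on the spread between 2 littermates. Intervals are exact at the 95% level, the limit for a count of 0 is 3 counts, and both cover counting error only. On simulated data for the step from the unnamed to the round spermatid-like cluster (13873 genes, 200 changed), edgeR recovered 68 of 100 genes changed 2-fold and 89 of 100 changed 4-fold, with 8 false calls. The simulated spread was fixed and the few changes were balanced in direction, so these numbers do not measure errors from scaling. Named genes were the 10 members, the 4 most abundant called genes of each list, and the 2 genes nearest to each member among those of at least 10 CPM over the germ cells of each mouse. Alternatives were RLE factors, plain totals, no gene filter, DESeq2 1.42.0, the mouse as a block, removal of doublets, thinning to 5000 UMIs, clusters built with the members and pathway genes, another seed, and UMIs per cell scaled by cells, added after seeing the data. These are the 10 alternatives counted per gene. Each mouse was also left out, as values with no test. Gene positions are from GENCODE, and promoters from RefSeq.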

Additional observations from a re-analysis of the deposited data

How the results depend on the processing

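The step counts depend on scaling, and depth limits Fbxo5, Mad2l1 and Fbxo43 in spermatids, where each sum held few UMIs. Espl1 and Bub1b likewise had few UMIs per sum in the elongating clusters. With 2 littermate mice, leaving out a mouse leaves no residual degrees of freedom, so no calls could be counted. Without replicate 1 and without replicate 2, the log2 CPM ratio of Cdc20 at the last step was -0.17 and 0.21.

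With the mouse as a replicate block, 3904 genes were higher and 3688 lower at the first step, against 3623 and 3367, and 6 members rose and 1 fell. Among the counts, the pairing moved only the lower calls of the checkpoint partners (8 against 5) and of the substrate list (2 against 1) at the first step by more than 1.5 times. It changed no call of a tested member between consecutive clusters. The calls of single list genes and the contrasts between other pairs of clusters were not repeated with the block.

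At the first step, members called higher numbered 2 with RLE, 2 with DESeq2, 3 with plain totals and 3 after thinning. Members called lower numbered 2 with no gene filter, a setting in which Fbxo5 also entered the fit. Bub3 was -0.16, -0.15, -0.12 and -0.41 there with RLE, DESeq2, plain totals and thinning. After thinning, genes called higher and lower were 2407 and 2163 at the first and 2600 and 2446 at the second step, 2309 were higher at the third, and 2053 were higher and 1676 lower at the fourth, with 2 members lower. Fzr1 was -0.14 at the second step after thinning. With plain totals, 4576 genes were lower at the third and 5513 at the fourth step, and with no gene filter 5299 at the fourth. Nek2 was -0.062 and -0.060 at the fourth step in these settings.

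At the last step, RLE and DESeq2 gave 4 members higher and 0 lower each, with Espl1 at 0.028 and 0.029. Plain totals gave 851 genes higher, 5033 lower and 0 members higher, with Pttg1, Bub3 and Nek2 at -0.30, -0.25 and -0.035. Without the gene filter 0 members were lower. Thinning gave 0 members higher, 0 lower, 1819 genes lower and Fbxo43 at -3.54.

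UMIs per cell, a scaling chosen after seeing the data, gave 2158 genes lower at the first step, 2922 higher and 7709 lower at the second, with Fzr1 at -0.71, and 4869 lower at the fourth. At the last step it gave 44 genes higher, 8737 lower, 0 members higher and 5 lower, with Cdc20 at -0.83, Fbxo43 at -0.68, Pttg1 at -1.21, Bub3 at -1.16 and Nek2 at -0.94. Without thinning, the mean number of members per cell was 6.28, 6.72, 4.78, 3.40, 1.96 and 0.978 over the clusters. The cause of these shifts was not tested.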
